A study of Mus musculus with 26 samples.

Results

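Cytosolic sulfotransferases move a sulfate group from the donor PAPS onto small molecules, which makes most of them more soluble and inactivates many hormones. The liver uses them to clear phenols, drugs, catecholamines, thyroid hormones and estrogens, and a separate branch of the superfamily, the Sult2a enzymes, sulfates bile acids and hydroxysteroids. This account follows the 7 mouse genes of the phenol and estrogen branches and of the smaller Sult3 and Sult5 families: Sult1a1, Sult1b1, Sult1c2, Sult1d1, Sult1e1, Sult3a1 and Sult5a1. They were chosen by name, as the rows of the count table whose Ensembl identifier carries one of these symbols, and all 7 were found among the 47643 genes of the table.

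Messenger RNA was sequenced in 26 mouse libraries that form 10 groups in 5 experiments, each with its own control. In the first, wild-type C57BL/6J mice of 8 weeks with free access to food received TCPOBOP, an agonist of the constitutive androstane receptor CAR, or the corn oil vehicle (2 libraries each); the sample titles place the TCPOBOP livers at 36 h after injection and the source names at 6 h. In the second, Fxr-/- Shp-/- mice, which lack Fxr, the nuclear receptor for bile acids encoded by Nr1h4, and Shp, the repressor encoded by Nr0b2, were set against wild-type mice (3 each, C57BL/6J, 12 weeks, fed freely). In the third, C3H/HeN mice of 8 to 10 weeks, fed freely and with no genotype given, were sampled 48 h after partial hepatectomy, in which part of the liver is removed, or after sham surgery at 0 h (3 each). In the fourth, hepatocytes were isolated after a 10 h fast from wild-type C57BL/6J mice of 16 weeks on a 60% high fat diet or on chow (2 each). In the fifth, C57BL/6J mice of 10 to 12 weeks with floxed Fxr and Shp alleles (fl/fl Fxr fl/fl Shp, no Cre named in the labels) received chow or a diet with the primary bile acid cholic acid, with a fast of 8 to 10 h before sampling (3 each). The hepatocyte groups apart, every library was made from whole liver, where fewer cells of a type and less RNA per cell cannot be told apart. The labels give no sex, and every library held at least 779 reads of the Y-linked gene Ddx3y and at most 8 of Xist.

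Levels are given as CPM, read counts scaled to a common library size after TMM normalization over all 26 libraries, and changes as log2 fold changes with their standard errors from edgeR's quasi-likelihood F test on the counts of each experiment alone, with Benjamini-Hochberg adjustment over all genes tested and a threshold of 0.05. Because the scaling of the 2 differs slightly, a fitted change need not equal the ratio of the printed means. The libraries held 13949059 to 70367874 reads on genes, so 3 reads, taken as the floor, amounted to 0.0450 to 0.222 CPM. Nothing states that the libraries of a group came from separate animals, so p-values measure the spread between these libraries. Reads aligned to more than 1 place made up 43.2% to 44.1% of all reads in the wild-type controls of the knockout and 16.6% to 26.9% in the other libraries; the part this difference has in the knockout results was not tested.

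Sult1a1, the main phenol sulfotransferase of the liver, and Sult1d1, which acts on catecholamines in rodents, carried most of the message of the 7 genes in every group. Per kilobase of exon, wild-type livers held 228 ± 33.1 CPM of Sult1a1 and 196 ± 19.8 CPM of Sult1d1 (mean ± SD, n = 3). Together with them, Sult1b1 stood at 6.22 ± 0.403 CPM per kb, Sult5a1 at 2.46 ± 0.661, Sult1c2 at 1.75 ± 0.328 and Sult1e1 at 1.33 ± 0.358. The ranges of Sult1a1 (190.4 to 252) and Sult1d1 (174 to 213) overlapped there, as did those of Sult5a1 (1.84 to 3.15) and Sult1c2 (1.40 to 2.05) and those of Sult1c2 and Sult1e1 (1.11 to 1.74). Sult3a1 had 0 reads in the wild-type livers. The order differed in the knockout, where Sult1a1 made up 63.6% of the summed level per length, Sult1d1 17.2% and Sult1e1 15.8%, against 52.4%, 44.9% and 0.306% in wild type. Sult1d1 ranked above Sult1a1 in TCPOBOP livers alone among the 10 groups, at 182 ± 49.9 against 125 ± 5.40 CPM per kb (n = 2), a group whose Sult1d1 libraries lay at 147 and 217.

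**Figure D1:**
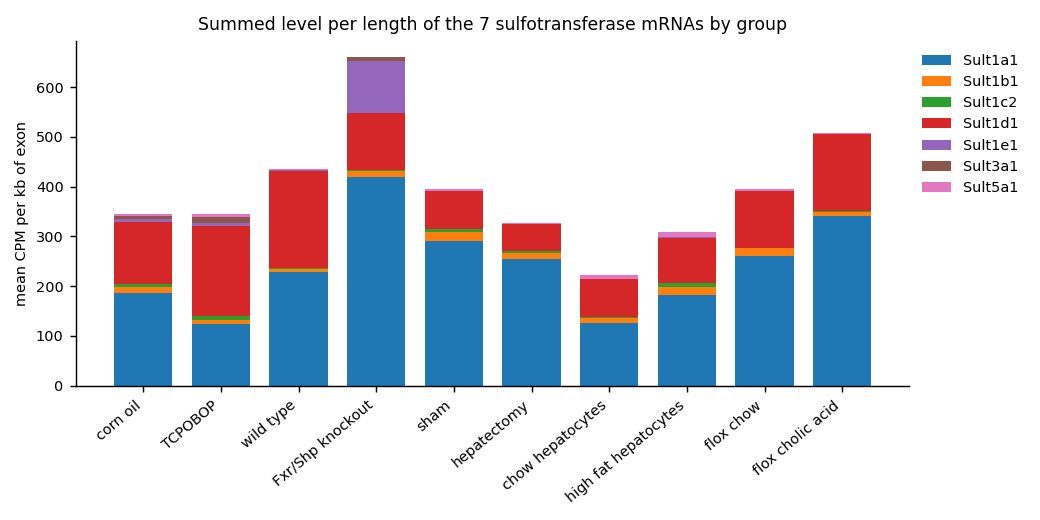
Stacked bars of the mean level per length (CPM per kb of exon, linear axis from 0) of the 7 sulfotransferase mRNAs in each of the 10 groups, without error bars. Sult1a1 and Sult1d1 fill most of every bar, and Sult1e1 forms a visible band in the Fxr/Shp knockout, where it makes up 15.8% of the sum.

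Knocking out Fxr and Shp changed all 7 genes: Sult1a1, Sult1b1, Sult1c2, Sult1e1 and Sult3a1 rose, and Sult1d1 and Sult5a1 fell. Of all 13473 genes tested, 40.4% passed the same threshold, 21.0% upward and 19.4% downward. Sult3a1 reached the test only through the knockout libraries and Sult5a1 only through the wild-type libraries, so the filter set the direction of each. The knockout and wild-type libraries did not overlap for any of the 7, as for 53.7% of all genes tested. The targeted genes were measured first. Nr0b2 stood at 0.563, 1.10 and 1.59 CPM in the knockout against 14.4, 26.8 and 13.3 in wild type. Nr1h4 kept 52.9 to 61.5 CPM in the knockout against 114 to 153. Reads outside a deleted part would still be counted, but where the remaining reads lie was not tested.

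Sult1e1, the estrogen sulfotransferase that inactivates estradiol and estrone, rose most among the genes with reads in both groups. It stood at 171, 50.7 and 169 CPM in the knockout libraries and at 2.17, 1.38 and 1.41 CPM in wild type. The lowest knockout library was still far above the highest wild-type library, and knockout 2 lay well below the other 2. The change was 6.30 on the log2 scale (SE 0.53, adjusted p = 5.16e-05, edgeR), a 78.7-fold rise in the fit, and it ranged from 6.04 to 6.68 when each library was left out in turn.

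Sult3a1, an amine sulfotransferase that is typical of female mouse liver, had 0 reads in each wild-type library and 272, 248 and 147 reads in the knockout. These correspond to 11.8, 10.9 and 6.01 CPM. Set against the floor of 3 reads per wild-type library, the mean knockout level was at least 56.1-fold higher. The change passed the test (adjusted p = 9.86e-05, edgeR), but Sult3a1 entered it only through the knockout libraries. The filter thus set its direction, and the p-value adds no support for a rise. Its near copy Sult3a2, with 90.9% identity in the coding sequence, had 37, 32 and 43 reads in the knockout and 0 in wild type. Of the 50-base words of the Sult3a1 transcript, 6.15% also occur in Sult3a2, so a small part of the reads could belong to either gene.

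Sult5a1, whose substrates are little known, went the other way. Wild-type libraries held 270, 176 and 138 reads (13.9, 10.6 and 8.11 CPM) and knockout libraries 3, 1 and 0 reads. The message was close to absent from every knockout library. The pooled level was 193-fold lower (95% counting interval 75.2 to 712), and the fitted change was -7.41 (SE 0.48, adjusted p = 1.22e-05, edgeR). Sult5a1 entered this test only through the wild-type libraries, so the filter set its direction and the p-value adds no support for a fall.

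The other 4 genes changed by less than 2-fold. Sult1a1 rose from 379.7, 287 and 365 CPM to 652, 593 and 654 CPM, a change of 0.90 (SE 0.12, adjusted p = 0.000653, edgeR). Sult1b1, which sulfates thyroid hormones and small phenols, rose from 16.6, 18.6 and 16.7 CPM to 28.8, 27.4 and 34.4 CPM, a change of 0.82 (SE 0.12, adjusted p = 0.000812, edgeR). In each of these genes the 3 knockout libraries lay close together and clear of the controls. Sult1d1 fell from 491, 429 and 524 CPM to 248, 252 and 339.5 CPM, by 0.76 on the log2 scale (SE 0.14, adjusted p = 0.00329, edgeR), with knockout 3 nearest to wild type; in a fit of all 26 libraries together the adjusted p was 0.0864. Sult1c2, a member of a subfamily that acts on phenols and aromatic hydroxylamines, rose from 3.30, 3.79 and 2.59 CPM to 5.07, 4.68 and 4.62 CPM. That change of 0.59 (SE 0.19, adjusted p = 0.0387, edgeR) was the least firm of the 7. It no longer passed without wild type 1 (adjusted p = 0.0946), wild type 3 (0.118), knockout 1 (0.113) or knockout 2 (0.0801), with DESeq2 (0.0534), or in the fit of all 26 libraries (0.286).

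Markers of some other liver cells moved in the same comparison. The summed level of 8 stellate cell markers was 427 to 479.6 CPM in the knockout against 188 to 313 CPM, with 6 of 8 raised, and that of 8 cholangiocyte markers 70.3 to 146 against 39.2 to 54.0 CPM, with 5 of 8 raised. The cholangiocyte markers Krt19 and Epcam stood at 1.34 ± 0.211 and 2.71 ± 0.530 CPM in the knockout and at 0.577 ± 0.297 and 0.945 ± 0.0719 CPM in wild type (n = 3). Of 10 hepatocyte markers 6 were lowered, with a summed level of 69210 to 93410 CPM against 98020 to 128200 CPM. The 7 gut and kidney markers summed to 11.2 to 13.8 against 42.0 to 57.8 CPM, with Fabp2 alone tested and lowered. The macrophage, endothelial and lymphocyte sums overlapped, with 2 of 8 macrophage markers raised and 1 lowered. Of 8 endothelial markers 2 were raised, and the 1 lymphocyte marker tested was not called. Over all genes tested 21.0% were raised and 19.4% lowered. The part of these shifts in the sulfotransferase changes was not tested.

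**Figure D2:**
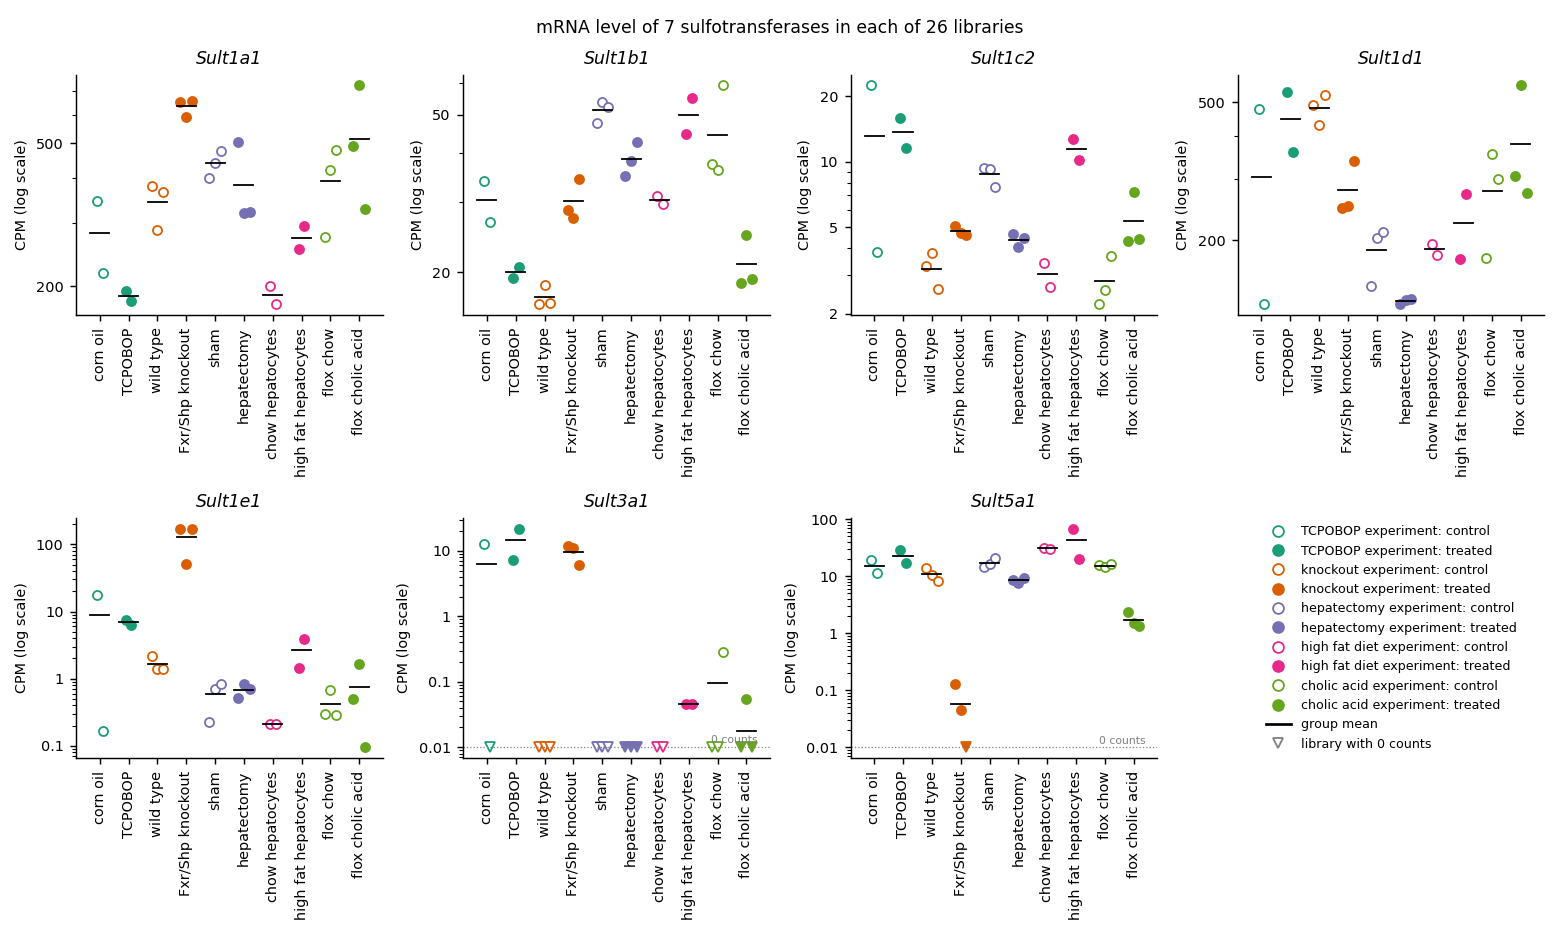
Level of each of the 7 sulfotransferase mRNAs in the 26 libraries (CPM, log axis). Open points are control and filled points treated libraries, bars are group means, and triangles on the dotted line mark libraries with 0 reads; Sult1e1 and Sult3a1 stand highest in the Fxr/Shp knockout and in 3 of the 4 libraries of the TCPOBOP experiment, and Sult5a1 is lowest in the knockout.

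Sult1b1, Sult1d1 and Sult1e1 are neighbours on chromosome 5. In GENCODE M21 (GRCm38) they lie on the minus strand at chr5:87513339-87538195, chr5:87554645-87569027 and chr5:87575969-87591594, with no annotated gene between them. Their coding sequences share 65.9% of bases between Sult1b1 and Sult1d1, and 63.6% between Sult1b1 and Sult1e1, and none of the 50-base words of the 3 transcripts occurs in another gene. In the knockout the outer 2 rose and Sult1d1, the middle gene, fell, so the sequences before their starts are shown for comparison. They come from RefSeq promoters (GRCm38.p6), cut to the bases before the annotated gene, at chr5:87538196-87538445, chr5:87569028-87569256 and chr5:87591612-87591861, all on the minus strand and written 5′ to 3′. Capitals mark matches, on either strand, to any of the motifs GTTAAT (half-site of the liver factor HNF1), AGGTCA (the half-site of many nuclear receptors), AGTTCA (a variant of that half-site), TTCNNNGAA (STAT5) and TATAAA (the core of the box that helps to place the start of transcription).

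Sult1b1: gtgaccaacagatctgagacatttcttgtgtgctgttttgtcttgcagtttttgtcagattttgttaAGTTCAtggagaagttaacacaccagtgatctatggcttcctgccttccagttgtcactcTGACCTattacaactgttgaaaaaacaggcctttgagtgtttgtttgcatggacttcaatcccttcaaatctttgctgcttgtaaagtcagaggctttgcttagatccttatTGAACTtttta
Sult1d1: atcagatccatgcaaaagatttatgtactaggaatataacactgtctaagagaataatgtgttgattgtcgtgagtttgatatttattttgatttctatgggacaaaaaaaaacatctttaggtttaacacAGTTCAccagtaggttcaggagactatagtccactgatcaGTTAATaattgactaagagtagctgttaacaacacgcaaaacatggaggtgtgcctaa
Sult1e1: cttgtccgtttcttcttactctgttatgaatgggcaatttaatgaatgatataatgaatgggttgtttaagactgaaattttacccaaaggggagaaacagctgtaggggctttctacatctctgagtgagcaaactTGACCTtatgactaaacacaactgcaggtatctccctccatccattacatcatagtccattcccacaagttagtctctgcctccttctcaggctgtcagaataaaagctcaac

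Sult1b1 holds AGTTCA on both strands and AGGTCA on the reverse strand, Sult1d1 holds AGTTCA and GTTAAT, and Sult1e1 holds AGGTCA on the reverse strand, 113 to 108 bases before the RefSeq start. Of 32851 RefSeq promoters with 250 bases before the start, 14.0% hold AGGTCA, 11.8% AGTTCA and 6.43% GTTAAT, so each match is also common elsewhere. Sult3a1, on the plus strand of chromosome 10 (gene at chr10:33857721-33879532), and Sult5a1, on the minus strand of chromosome 8 (gene at chr8:123140192-123158315), are shown from the same source because they changed most strongly in opposite directions; the stretches lie at chr10:33857472-33857720 and chr8:123158316-123158530.

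Sult3a1: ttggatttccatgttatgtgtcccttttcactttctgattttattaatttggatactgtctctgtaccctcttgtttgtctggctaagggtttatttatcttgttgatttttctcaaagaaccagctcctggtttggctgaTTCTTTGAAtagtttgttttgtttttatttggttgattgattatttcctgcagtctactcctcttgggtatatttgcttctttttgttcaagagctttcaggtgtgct
Sult5a1: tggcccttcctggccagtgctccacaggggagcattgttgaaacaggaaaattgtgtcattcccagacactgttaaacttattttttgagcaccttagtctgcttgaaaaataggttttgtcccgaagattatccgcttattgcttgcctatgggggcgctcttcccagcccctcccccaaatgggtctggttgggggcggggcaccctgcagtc

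Sult3a1 holds the STAT5 letters TTCTTTGAA 109 to 101 bases before the start, a motif found in 7.02% of all promoters of this length, and Sult5a1 holds none of the 5 motifs in its 215 bases. TATAAA, present in 12.4% of promoters, occurs in none of the 5 stretches. These matches describe letters only. Sult1a1, at chr7:126672865-126676432 on the minus strand, shares 61 exon bases with Sgf29 on the opposite strand, and 9.19% of its 50-base words occur in Sgf29 or Gm6939, which makes a small share of its reads uncertain. Sult1c2 lies on the minus strand at chr17:53829637-53846339.

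Dietary cholic acid lowered Sult5a1 and Sult1b1 and raised none of the 5 genes tested. Over all 12577 genes 4.77% were called, 2.27% upward and 2.50% downward. Sult5a1 stood at 15.5, 14.4 and 16.2 CPM on chow and at 2.32, 1.51 and 1.33 CPM on cholic acid. Every cholic acid library was far below every chow library. The change was -3.15 (SE 0.25, adjusted p = 0.0019, edgeR) and ranged from -3.42 to -2.99 with single libraries left out. In these mice the Nr1h4 message was also lower, at 56.1 to 82.6 CPM against 123 to 144.5 CPM, with a change of -1.01 (adjusted p = 0.0219, edgeR), and Nr0b2 was higher, with a change of 1.96 (adjusted p = 0.00982, edgeR).

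Sult1b1 fell from 37.5, 36.1 and 59.3 CPM to 18.7, 24.9 and 19.2 CPM, a change of -1.08 (SE 0.23, adjusted p = 0.0384, edgeR). The groups did not overlap, and chow 3 lay above the other chow libraries. The call held without chow 3 and was lost without chow 1 (adjusted p = 0.06), chow 2 (0.0701), cholic acid 1 (0.139), cholic acid 2 (0.0741) or cholic acid 3 (0.146), while the change stayed between -1.22 and -0.82.

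The remaining genes did not pass. Sult1c2 was 4.34, 7.28 and 4.43 CPM on cholic acid and 2.22, 2.58 and 3.70 CPM on chow, without overlap, a difference of 0.91 (SE 0.33, adjusted p = 0.146, edgeR). Sult1a1 stood at 490.5, 724 and 327.5 CPM against 274, 422 and 479 CPM, and Sult1d1 at 307, 558 and 274 CPM against 178, 354.5 and 299.9 CPM. In both genes the groups overlapped and cholic acid 2 was highest, with differences of 0.39 (SE 0.32) and 0.45 (SE 0.34). Sult1e1 had 10, 31 and 2 reads on cholic acid and 4, 10 and 4 on chow, too few for the test, with a pooled ratio of 1.69 (95% counting interval 0.956 to 3.12). Sult3a1 had 1 read in the cholic acid libraries together and 4 in the chow libraries, all 4 in chow 3. The 8 cholangiocyte markers summed to 63.1 to 78.0 CPM on cholic acid against 57.3 to 59.2 CPM on chow, with none of the 6 tested called by edgeR (2 had an unadjusted p under 0.05), while the hepatocyte, macrophage, endothelial, stellate and lymphocyte sums overlapped; the part of this shift in the sulfotransferase changes was not tested.

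The knockout and the cholic acid diet are both bile acid models, and the difference between their effects was tested directly over their 12 libraries. Their experiments also differ in feeding, age, control genotype and the share of control reads aligned to more than 1 place. In this contrast these cannot be told apart from the knockout and the diet. The difference passed for 4 of the 7 genes, 3 higher and 1 lower in the knockout. Over all 13935 genes 13.9% passed, 7.18% higher and 6.74% lower. Sult1e1 and Sult3a1, too low for the test on cholic acid, entered only through the libraries of the knockout experiment. The filter thus favoured a higher call for them, and the share over all genes does not correct for this. Sult1b1 rose in the knockout and fell on cholic acid, and the effects differed by 1.91 (SE 0.27, adjusted p = 0.000883, edgeR). Sult5a1 fell in both, and by 4.24 more on the log2 scale in the knockout (SE 0.62, adjusted p = 0.000988, edgeR). Sult1e1 rose more in the knockout, by 5.53 (SE 1.31, adjusted p = 0.0147, edgeR), a call that was lost without chow 2 (4.99, adjusted p = 0.102). For Sult3a1 the difference also passed (adjusted p = 0.00695, edgeR), but it rests on the 4 reads of chow 3, since it was lost without that library (adjusted p = 1), and in the fit of all 26 libraries (0.108); a fitted size is not given because the wild-type libraries had 0 reads. Sult1d1 missed the threshold at -1.21 (SE 0.40, adjusted p = 0.0648, edgeR) and passed with no filter on low counts (0.0215), with DESeq2 (0.0298), with the replicate number as a block (0.0243), without chow 2 (0.0431) and without cholic acid 3 (0.0432). For Sult1a1 and Sult1c2 the differences were 0.52 (SE 0.37) and -0.32 (SE 0.38).

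**Figure D3:**
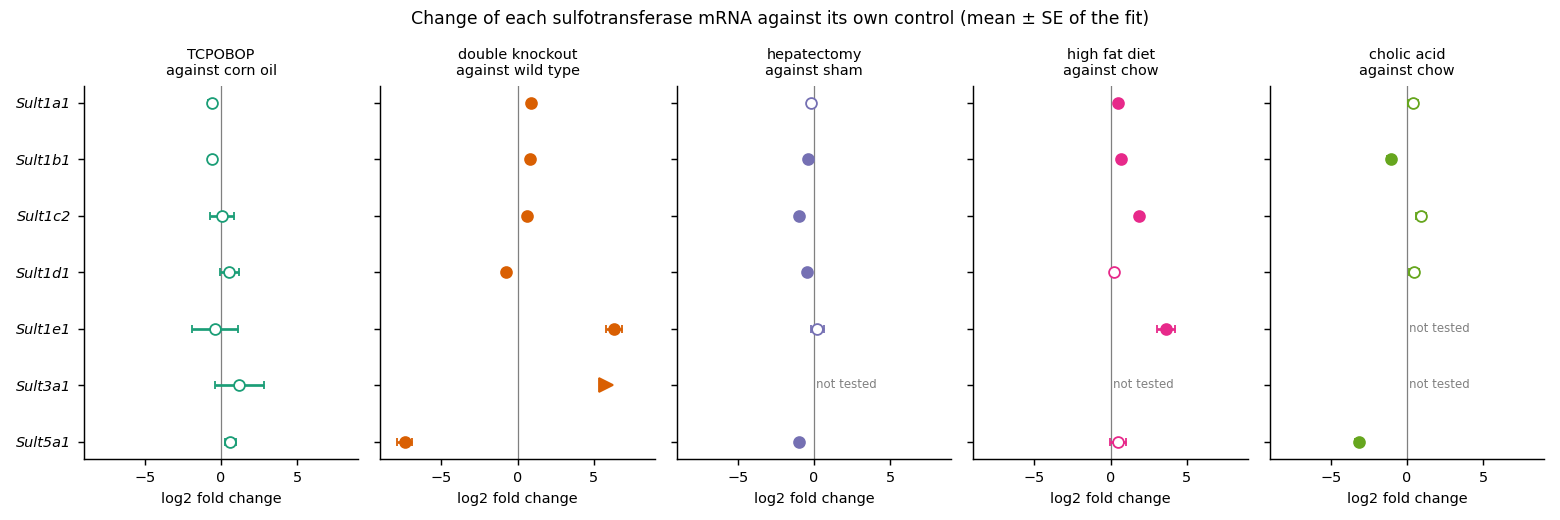
Fitted log2 fold change of each sulfotransferase mRNA in each of the 5 comparisons with its standard error; filled points passed the test, open points did not, and the arrowhead for Sult3a1 in the knockout marks a lower bound of 5.81. Sult5a1 lies on the negative side in the knockout, hepatectomy and cholic acid panels, where it passed, and on the positive side in the other 2, where it did not.

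Sult1b1, Sult1c2, Sult1d1 and Sult5a1 were lower 48 h after partial hepatectomy than in the sham livers. None of the 6 genes tested was raised. The sham livers were taken at 0 h, so loss of liver tissue and the 48 h since surgery cannot be told apart. Over all 13753 genes 30.7% were called, 14.3% downward. Sult5a1 fell from 14.4, 16.5 and 21.0 CPM after sham surgery to 8.48, 7.62 and 9.46 CPM at 48 h, by 1.02 on the log2 scale (SE 0.16, adjusted p = 0.0026, edgeR). Sult1c2 fell from 9.35, 9.20 and 7.68 CPM to 4.64, 4.06 and 4.46 CPM, by 0.99 (SE 0.14, adjusted p = 0.00149, edgeR). These 2 genes came to about the same fold decrease, with hepatectomy libraries close to each other and clear of sham, and both calls held with each library left out; in the fit of all 26 libraries the adjusted p of Sult1c2 was 0.0539.

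The falls of Sult1b1 and Sult1d1 were smaller and less firm. Sult1b1 went from 47.7, 53.8 and 52.3 CPM to 35.1, 38.2 and 42.6 CPM, a change of -0.41 (SE 0.10, adjusted p = 0.0164, edgeR), lost without sham 2 (0.0744) or sham 3 (0.068). Sult1d1 went from 147.5, 203 and 211 CPM to 131, 135 and 136 CPM, a change of -0.48 (SE 0.14, adjusted p = 0.0294, edgeR), lost without sham 2 (0.11), sham 3 (0.113), hepatectomy 1 (0.0654) or hepatectomy 2 (0.0687). Sham 1 was the sham library nearest to the hepatectomy libraries for Sult1d1. In the fit of all 26 libraries Sult5a1 alone of the 7 kept its call, and the adjusted p was 0.0709 for Sult1b1 and 0.347 for Sult1d1.

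Sult1a1 stood at 505, 319.5 and 322 CPM after hepatectomy and 399.8, 442 and 476 CPM after sham surgery, a difference of -0.20 (SE 0.18, adjusted p = 0.445, edgeR). Hepatectomy 1 was above every sham library and the other 2 were below them, and without hepatectomy 1 the difference was -0.45 and passed (adjusted p = 0.0183). Sult1e1 was low in both groups, with 18, 29 and 26 reads against 7, 24 and 25, and did not pass (0.22, SE 0.45). Sult3a1 had 0 reads in all 6 libraries, which allows up to 0.0811 to 0.100 CPM per library.

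The summed level of the 10 hepatocyte markers was 105900 to 116200 CPM after hepatectomy against 135000 to 139700 CPM after sham surgery, with 4 of 10 lowered and 1 raised. That of 7 markers of gut and kidney was 61.5 to 69.7 against 84.2 to 103 CPM, and of the 2 that could be tested Fabp2, a gut marker, was lowered. The summed levels of the cholangiocyte, macrophage, endothelial, stellate and lymphocyte markers overlapped between the groups. Over all genes tested 16.4% were raised and 14.3% lowered. The part of these shifts in the sulfotransferase changes was not tested.

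In isolated hepatocytes the high fat diet raised Sult1e1, Sult1c2, Sult1b1 and Sult1a1 and lowered none of the 6 genes tested. Over all 13892 genes 24.0% were called, 12.9% upward and 11.1% downward. Sult1e1 stood at 1.43 and 3.84 CPM on the high fat diet and at 0.213 and 0.208 CPM on chow. The chow libraries were nearly equal, and high fat 2 was well above high fat 1. The change was 3.61 (SE 0.59, adjusted p = 0.0134, edgeR), from 2.71 to 4.15 with single libraries left out. Even so, the highest high fat library, at 3.84 CPM, was below the lowest knockout liver, at 50.7 CPM, a level from another tissue preparation.

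Sult1c2 rose from 3.41 and 2.66 CPM to 12.7 and 10.2 CPM, a change of 1.88 (SE 0.19, adjusted p = 0.00445, edgeR), its largest change in the 5 comparisons. Sult1b1 rose from 31.2 and 29.8 CPM to 44.6 and 55.0 CPM, a change of 0.68 (SE 0.12, adjusted p = 0.0163, edgeR). Both genes kept their call with each library left out. Sult1a1 rose from 199.9 and 178 CPM to 253 and 293 CPM, a change of 0.50 (SE 0.11, adjusted p = 0.0299, edgeR), a call lost without chow 2 (0.0802), without high fat 2 (0.0998) and in the fit of all 26 libraries (0.285).

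Sult1d1 and Sult5a1 did not pass. Sult1d1 stood at 177 and 272 CPM against 196 and 182 CPM, and Sult5a1 at 68.3 and 19.8 CPM against 31.7 and 30.4 CPM. The high fat libraries of Sult5a1 lay on either side of the chow libraries. Its difference of 0.48 (SE 0.51, adjusted p = 0.53, edgeR) became 1.10 without high fat 2 (adjusted p = 0.00397) and -0.67 without high fat 1 (adjusted p = 0.0259), so these 2 libraries went against each other. Sult3a1 had 3 reads in each high fat library and 0 on chow, and was not tested.

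Non-hepatocyte markers were higher in the same high fat libraries. The summed level of 8 endothelial markers was 119.5 to 124 CPM against 49.0 to 50.1 CPM, with 8 of 8 raised, that of 8 stellate markers 42.4 to 46.4 against 10.4 to 17.2 CPM, with 7 of 8 raised, and that of 8 macrophage markers 78.8 to 89.3 against 48.0 to 49.1 CPM, with 5 of 8 raised. The hepatocyte markers summed to 109800 to 111300 CPM against 111800 to 113300 CPM. The 8 cholangiocyte markers summed to 24.6 to 35.9 against 22.0 to 23.0 CPM, with none of the 3 tested called by edgeR (all 3 had an unadjusted p under 0.05, not all in the same direction), and Krt19 and Epcam, which define these cells, were at 0 on chow and at most 0.135 and 0.0766 CPM on the high fat diet. The 8 lymphocyte markers summed to 2.26 to 2.57 against 0.697 to 1.33 CPM, with the 1 gene tested raised. The 7 gut and kidney markers summed to 119 to 120.5 against 46.0 to 54.7 CPM, with Fabp2 alone tested and raised. Over all genes tested 12.9% were raised and 11.1% lowered. The part of these marker shifts in the sulfotransferase changes was not tested.

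TCPOBOP against corn oil gave no call for any of the 7 genes with edgeR, nor for any of the 12785 genes tested (percent called 0), although 751 genes had an unadjusted p under 0.05; DESeq2 called 102 genes and none of the 7. The corn oil libraries differed from each other. The level of Cyp2b10, the standard target of CAR, was 3672 CPM for the control labelled corn oil 1, 10.0 CPM for corn oil 2, and 3420 and 2976 CPM for the TCPOBOP libraries. The library labelled corn oil 1 thus goes against its label, and the results are given with and without it.

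Sult3a1 stood at 12.8 CPM in corn oil 1, at 0 in corn oil 2 and at 7.37 and 21.8 CPM after TCPOBOP. Sult1e1 stood at 17.8 and 0.167 CPM in the same corn oil libraries and at 7.49 and 6.26 CPM after TCPOBOP. Sult1c2 stood at 22.4 and 3.83 CPM, against 15.8 and 11.6 CPM. In each of these genes corn oil 2 was lowest and corn oil 1 was at or above the level of a TCPOBOP library. Sult1d1 showed the same order, at 477 and 132 CPM against 534 and 360.4 CPM.

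Sult1a1 and Sult1b1 had both TCPOBOP libraries below both corn oil libraries. Sult1a1 stood at 194 and 182 CPM after TCPOBOP and at 345 and 218 CPM on corn oil, a difference of -0.59 (SE 0.25, adjusted p = 0.862, edgeR). Sult1b1 stood at 19.3 and 20.6 CPM and at 34.0 and 26.7 CPM, a difference of -0.61 (SE 0.17, adjusted p = 0.812, edgeR). Of all genes, 17.3% lay below in the same way. Sult5a1 stood at 28.8 and 17.4 CPM against 19.2 and 11.2 CPM, with a difference of 0.59 (SE 0.36, adjusted p = 0.918, edgeR).

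Leaving out either corn oil library changed the fitted differences, and the lone control was then assumed to vary like the TCPOBOP libraries. Without corn oil 1 the differences were 1.83 for Sult1c2, 1.76 for Sult1d1, 5.30 for Sult1e1 and 1.03 for Sult5a1. Those of Sult1a1 and Sult1b1 were -0.22 and -0.43, and Sult3a1 was higher against 0 reads. Without corn oil 2 they were -0.89 for Sult1a1, -0.78 for Sult1b1, -1.38 for Sult1e1, -0.72 for Sult1c2 and -0.10 for Sult1d1. Sult3a1 and Sult5a1 then differed by 0.18 and 0.25. Sult1e1, Sult1c2 and Sult1d1 therefore went in opposite directions with either control.

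Each gene's pattern was compared with those of 11395 genes with a mean of at least 1 CPM, as the Pearson correlation of log2(CPM + 1) after the mean of each experiment was taken away. The points are the 26 libraries, which share their experiment's batch and treatments, so the coefficients are descriptions. Sult5a1 was most like Nr1h4, the Fxr gene itself (r = 0.91), followed by the carboxylesterase gene Ces3b (0.91) and Sntg2 (0.88). Without the knockout experiment, in which Nr1h4 was the target, the coefficient with Nr1h4 was 0.82 over 20 libraries. The hepatocyte experiment departs from this pattern, since Nr1h4 stood at 157 and 166 CPM in the high fat libraries in which Sult5a1 stood at 68.3 and 19.8 CPM.

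Sult1e1 was most like Cyp2b13, a female-typical cytochrome P450 gene (r = 0.92, and 0.80 without the knockout experiment), followed by the transporter gene Slc22a27 (0.92, and 0.64) and Dcaf4 (0.91, and 0.75). Sult3a1 was most like Rsph4a (0.93, and 0.89 without the knockout experiment), Nebl and Elovl1. Outside the knockout and TCPOBOP experiments Sult3a1 stood at 0 to 0.290 CPM. The 0.89 thus rests on the TCPOBOP experiment, which includes corn oil 1. Among the genes close to Sult1b1 were Gamt, which encodes an enzyme of creatine synthesis (0.89), and Lrriq3 (0.89). Sult1c2 followed Akr1d1, a reductase of bile acid synthesis (0.85). Sult1d1 followed Por, the electron donor of the cytochromes P450 (0.81), and Sult1a1 followed Limd2 (0.86). Among the 7 themselves the highest coefficient was 0.86 between Sult1e1 and Sult3a1, which rests on the knockout and TCPOBOP experiments. The lowest was -0.63 between Sult1e1 and Sult5a1, whereas the chromosome 5 neighbours Sult1d1 and Sult1e1 stood at -0.01.

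**Figure D4:**
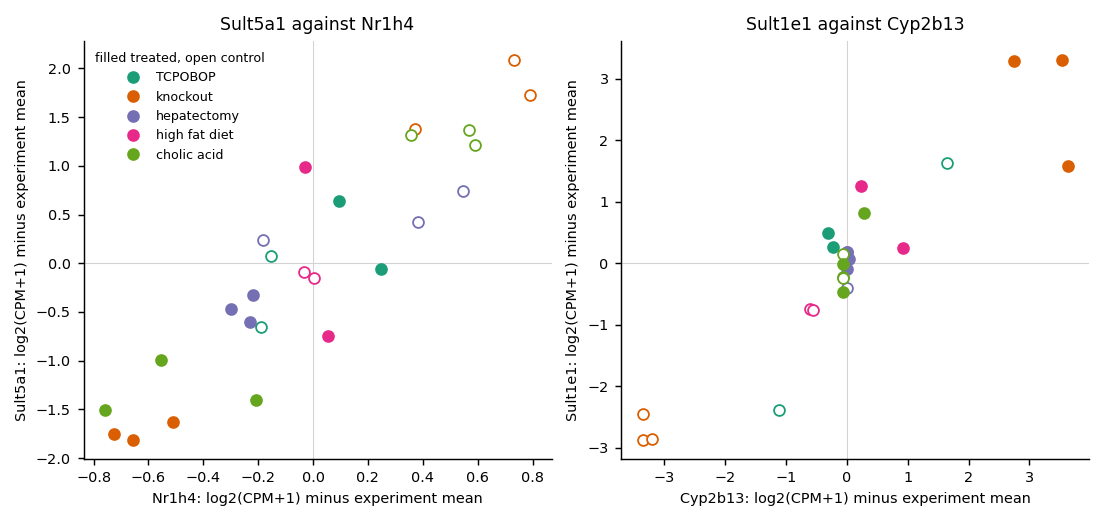
Level of Sult5a1 against Nr1h4 (left) and of Sult1e1 against Cyp2b13 (right) in 26 libraries, each as log2(CPM + 1) minus the mean of its experiment; filled points are treated and open points control libraries. Knockout libraries lie at the low end of both axes on the left (r = 0.91 with Nr1h4) and at the high end of both on the right (r = 0.92 with Cyp2b13).

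The other sulfotransferases and the genes that supply sulfate were followed in the same fits. Of the 14 other Sult genes, 8 were tested in the knockout and 2 in each of the other comparisons with a control. All 8 changed in the knockout, 6 upward and 2 downward, against 40.4% of all genes called there, 21.0% upward and 19.4% downward. Genes at or near 0 reads in wild type, Sult2a1 among them, reached this test only through the knockout libraries. The filter thus set their upward direction. The share over all genes does not correct for this. Sult2a1, a hydroxysteroid and bile acid sulfotransferase, stood at 1187 ± 166 CPM in the knockout against 0.167 ± 0.0938 CPM in wild type, and Sult2a2 and Sult2a3 rose from 0 reads to 251 ± 27.8 and 56.6 ± 19.7 CPM (n = 3). The coding sequence of Sult2a1 is 97.9% identical to that of Sult2a2 and 93.7% to that of Sult2a3. Reads of one could therefore be counted for another, and whether these rises are separate was not tested. Sult2a8, another bile acid sulfotransferase, fell like Sult5a1 in the knockout (-3.44, SE 0.25), after hepatectomy (-0.91, SE 0.08) and on cholic acid (-5.05, SE 0.50), and it also fell on the high fat diet (-0.63, SE 0.13), with edgeR adjusted p of 2.3e-05, 0.000147, 0.00256 and 0.0221.

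Of 14 genes of sulfate uptake, PAPS synthesis and sulfur oxidation tested, 5 were called in the knockout (2 raised, 3 lowered; median of the list 0.07, of all genes -0.01), 4 after hepatectomy (1 raised, 3 lowered; -0.25 against 0.01), 6 on the high fat diet (5 raised, 1 lowered; 0.08 against 0.01), 3 on cholic acid (all lowered; -0.21 against 0.01) and none after TCPOBOP with edgeR. Over all genes 40.4%, 30.7%, 24.0% and 4.77% were called in the first 4 of these comparisons, so the counts in the knockout and after hepatectomy were near the background. By direction, 21.0% were raised and 19.4% lowered in the knockout, and 16.4% and 14.3% after hepatectomy. The shares were 12.9% and 11.1% on the high fat diet and 2.27% and 2.50% on cholic acid. Papss1, a PAPS synthase, rose in the knockout (1.70, SE 0.19, adjusted p = 0.000224, edgeR), after hepatectomy (0.74, SE 0.12, 0.00319) and on the high fat diet (0.90, SE 0.17, 0.02). Papss2, which encodes the other PAPS synthase, fell after hepatectomy (-0.86, SE 0.08, adjusted p = 0.000233, edgeR). On cholic acid Mpst (-1.53) and Tst (-1.24), enzymes of sulfur transfer, and Slc26a1 (-0.97), a sulfate transporter of the hepatocyte, were lowered. Of 6 sulfatase genes, which remove sulfate, 4 were called in the knockout (Arsb 0.62 and Arsk 0.71 raised, Arsa -1.67 and Arsg -0.70 lowered), and Arsb alone was raised after hepatectomy (0.69) and on the high fat diet (0.41). Over all genes 40.4% were called in the knockout, 30.7% after hepatectomy and 24.0% on the high fat diet, and the median of the 6 sulfatases was -0.06, -0.07 and 0.21.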

How the data were processed

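Libraries were made with a strand-specific mRNA kit, per the labels' protocols. The submitters' processing notes name bcl2fastq 2.17.1.14, Trimmomatic, STAR 2.4.2a, Picard 1.119, HTSeq and the builds GRCm38 and mm10; the annotation and the strand setting of the counting are not given in the sources used here. The authors deposited 1 table of raw read counts for 47643 genes and 5 summary lines, which were left out of library sizes; 0 columns were unused. Symbols were matched for 47224 identifiers, including all 7 members. The members and lists were chosen with earlier results of these data known. Each experiment was fitted alone (edgeR 4.0.16, R 4.3.3) after filterByExpr (10 reads scaled to library size, total 15) and TMM; standard errors were taken as the size of the log2 change over the root of F. All 7 members were named in every comparison; of each list at most 3 called genes with an average log2 CPM of at least 1 were given with values, the sulfatases excepted, all of which were named after their values were seen. Of the genes most like each member, 1 is not reported here. Alternatives were DESeq2 size factors, no filter, a mean count of 10, DESeq2 1.42.0, 1 fit of all libraries, a replicate block and leaving out each library. Scripts were tested on simulated data. Gene positions, lengths and transcripts come from GENCODE M21, and the counting may have used another release. Counting intervals are at 95% and cover counting error only.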

Additional observations from a re-analysis of the deposited data

How the results depend on the processing

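Of 472 values recomputed for 38 gene and comparison pairs, 422 kept their direction and side of the threshold, 29 lost a call, 13 gained a call and 8 changed sign, 5 of these in the TCPOBOP experiment and 0 for a called gene. With single libraries left out, the number of the 7 genes called ranged from 0 to 4 for TCPOBOP, 2 to 4 for hepatectomy and 1 to 2 for cholic acid, and stayed within 1.5 times the reported number for the knockout (6 to 7), the high fat diet (3 to 5) and the contrast of knockout with cholic acid effects (3 to 5). The fit of all 26 libraries called 1 gene for hepatectomy. Replicate numbers come from titles alone. Deviations of same-numbered libraries correlated at 0.126, 0.158 and 0.0893 in the cholic acid experiment, where each library correlated best with its own number, and at -0.209 to 0.12 in the other experiments of 3. With the replicate number as a block, 1 gene was called on cholic acid, where Sult1b1 was lost (-1.06, adjusted p = 0.0687), 6 in the knockout, where Sult1c2 was lost (0.60, adjusted p = 0.0605), and 5 for the difference, where Sult1d1 passed (-1.20, adjusted p = 0.0243), as it did with no filter (-1.21, adjusted p = 0.0215); Sult1e1 after TCPOBOP became 0.97 with the block, without a call. Signs changed with a library left out for Sult1e1 (-1.38 to 5.30), Sult1c2 (-0.72 to 1.83) and Sult1d1 (-0.10 to 1.76) after TCPOBOP, Sult1d1 (-0.13 to 0.50) and Sult5a1 (-0.67 to 1.10) on the high fat diet, and Sult1e1 after hepatectomy (-0.17 to 0.54); the cause was not tested. Over all genes, the count on cholic acid went from 600 to 1379 with DESeq2, 955 with no filter and 3132 in the fit of all libraries, where the high fat diet gave 1735 in place of 3333, TCPOBOP 9 in place of 0 and the difference 2991 in place of 1939; DESeq2 gave 102 for TCPOBOP. With single libraries left out it ranged from 0 to 1233 for TCPOBOP (413 without corn oil 2), 189 to 1345 on cholic acid, 1141 to 2644 on the high fat diet and 2554 to 4217 after hepatectomy. Sult3a1 outside the knockout and TCPOBOP experiments, and Sult1e1 on cholic acid, had too few reads to be tested.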

Other observations

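Sult3a1 and Sult1e1 rose in the knockout together with genes that are typical of female mouse liver. Of 17 such genes tested, 16 were raised (median log2 fold change 3.94), against 21.0% of all genes raised, among them Cyp2b9, Cyp2b13 and Cyp2a4, which encode female-typical cytochromes P450, and 15 of 16 male-typical genes were lowered (median -5.75, or -5.64 with genes at 0 reads set to the floor), against 19.4% of all genes lowered, among them Elovl3, Cyp4a12b and Slco1a1, an organic anion transporter gene that stood at 267 ± 38.2 CPM in wild type and at 0.173 ± 0.225 CPM in the knockout (n = 3). Of 18 female-typical genes, 17 were tested in the knockout, 13 on the high fat diet, 10 on cholic acid and 12 after hepatectomy. Those near 0 in wild type, such as Cyp2b13 (0, 0 and 0.118 CPM), reached the knockout test only through the knockout libraries. Male-typical genes near 0 in the knockout, such as Slco1a1, reached it only through wild type. The filter set the direction of such genes, and the shares over all genes do not correct for this. On the high fat diet 15 of 16 male-typical genes were lowered as well (median -2.60), but 5 of 13 female-typical genes were raised and 2 lowered (median 1.12), against 12.9% of all genes raised and 11.1% lowered. Sult3a1 had 3 reads in each high fat library and 0 on chow. On cholic acid 10 of 15 male-typical genes were lowered (median -2.89) and 1 of 10 female-typical genes was raised (median 0.72), against 2.50% of all genes lowered and 2.27% raised, while Sult1e1 and Sult3a1 stayed too low to test. After hepatectomy 8 of 12 female-typical genes (median -1.71) and 8 of 15 male-typical genes (median -0.83) were lowered, and 2 male-typical genes were raised, against 14.3% of all genes lowered and 16.4% raised. The median over all genes was between -0.01 and 0.01 in these 4 comparisons.

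Genes that make or break down the hormones on which these enzymes act were followed as well. Of 14 tested, 4 were raised and 6 lowered in the knockout (median -0.15), 9 were lowered after hepatectomy (-0.31), 2 were raised and 5 lowered on the high fat diet (-0.12), and 1 was raised and 3 lowered on cholic acid (-0.19). Over all genes 40.4% were called in the knockout (21.0% raised, 19.4% lowered) and 30.7% after hepatectomy (16.4% raised, 14.3% lowered). The shares were 24.0% on the high fat diet (12.9% raised, 11.1% lowered) and 4.77% on cholic acid (2.27% raised, 2.50% lowered). Dio1, the deiodinase that activates thyroid hormone, fell on cholic acid (-4.37, SE 0.53, adjusted p = 0.00619, edgeR), as did Sult1b1, and it also fell in the knockout (-1.74, SE 0.36, adjusted p = 0.00564, edgeR), where Sult1b1 rose.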
